A study of Mus musculus with 965 samples.

Results

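A pair of plates of single cells from day 8 embryoid bodies was compared: C378, which is labelled 3B77 (a homozygous Dnmt3b knockout clone), and C343, which is labelled WT. Their members were chosen by plate, as every column of the count table whose name starts with C378 or C343. C378 held 40 cells and C343 held 21 cells, which made 61 of the 965 cells of the series. Embryoid bodies are aggregates that E14 mouse embryonic stem cells form once the cytokine LIF is withdrawn, and whose cells differentiate without an added patterning signal. The series follows WT cells and knockout clones of the de novo DNA methyltransferases Dnmt3a and Dnmt3b over several days of this differentiation. The comparison describes which cells and transcripts the day 8 plates labelled 3B77 and WT held. Whether the cells of C378 lacked Dnmt3b could not be established from these counts.

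All 61 cells came from E14 cells kept in serum and LIF and then grown without LIF on low-attachment plastic in serum and serum replacement. The WT cells carried no knockout according to the labels, and 3B77 stands for 1 clone. Bodies were pooled before cells were sorted into wells, so the cells of a plate share their culture. C378 was labelled batch 3 and C343 batch 2, so batch and genotype cannot be told apart. Each group was 1 plate. The cells of a plate are not replicates of a condition, so no test of the genotype was possible, no p-value is given, and the intervals cover counting error only. The plates held 9810248 reads in C378 and 5500198 reads in C343. Cells of C378 held 59779 to 628365 reads (median 202179) and 2006 to 6150 detected genes (median 3647). Cells of C343 held 66527 to 861141 reads (median 181324) and 2080 to 4603 genes (median 3566). Mitochondrially encoded genes took a median of 14.1% of the reads of a cell in C378 and 15.3% in C343.

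The titles of 4 cells of C343 carry the suffix OLDNPM, whose meaning the labels do not give. Of these 3 were mesenchyme-like and 1 was a globin-rich blood-like cell. They were kept, and results that rest on them are given without them as well.

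The label of C378 did not match its Y-linked transcripts. After each cell was thinned to 50000 reads, Eif2s3y, a translation factor gene on the Y chromosome, had a read in 11 of 40 cells of C378 (27.5%, exact 95% interval 14.6 to 43.9%) and in 3 of 21 cells of C343 (14.3%, 3.05 to 36.3%). It had a read in 0 of 79 cells of C380 and 0 of 71 cells of C388, the other plates labelled 3B77. The exact intervals allow shares of up to 4.56% and 5.06%. Xist, the RNA that coats the inactive X chromosome, had a read in 0 of 40 cells of C378, which allows up to 8.81%. It had one in 43 of 79 cells of C380 (54.4%) and 22 of 71 cells of C388 (31%). Xist alone did not separate the labels. It had a read in 1 of 21 cells of C343 and 3 of 72 cells of C307 (3A38, day 8). In the WT plates C315 (day 3) and C334 (day 6) it had one in 41 of 74 and 12 of 67 cells. The WT plates of day 8 differed from each other as well. C344 had Eif2s3y in 0 of 68 cells, which allows up to 5.28%, and Xist in 19 of 68 (27.9%). At least 3 Y-linked reads were found in 23 of 74 cells of WT plate C315 and 36 of 67 cells of WT plate C334. Y-linked reads in C378 were not held by 1 cell type, since 6 of 23 mesenchyme-like, 4 of 11 blood-like and 1 of 4 endothelium-like cells had at least 3 of them. The targeted gene decided nothing here. Dnmt3b had a read in 4 of 40 cells of C378 (5.50 CPM, a count scaled by the total of the plate) and in 1 of 21 cells of C343 (6.36 CPM), and reads outside the deleted part of the gene can still be counted. Dnmt3a was at 25.9 CPM in C378 and 94.5 CPM in C343, where 1 cell gave 56.7% of the reads. No gene separated the other 3B77 plates from WT plates at a detection of 40% on one side and 5% on the other. C378 is therefore called the library labelled 3B77 or by its plate name, and no comparison with C343 remains without it.

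Mesenchyme is the loose embryonic tissue whose migratory cells secrete collagens and other matrix proteins, and much of it derives from mesoderm. Primitive blood is a separate product of mesoderm, first formed in the yolk sac, where early red cells carry embryonic globins such as Hbb-bh1, Hbb-y and Hba-x and early macrophages arise beside them. Dnmt3b is one of the enzymes that place new cytosine methylation at the time these lineages are set aside.

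Both libraries held mostly mesenchyme and blood, in shares whose intervals overlapped. Clusters were named from lists of marker genes. The mesenchyme-like cluster, with 9 listed markers among those raised in it, took 23 of 40 cells of C378 (57.5%, exact 95% interval 40.9 to 73%) and 14 of 21 cells of C343 (66.7%, 43 to 85.4%). The blood-like cluster, with 10 such markers, took 11 cells of C378 (27.5%, 14.6 to 43.9%) and 6 cells of C343 (28.6%, 11.3 to 52.2%). Endothelium-like cells numbered 4 in C378 (10.0%) and 1 in C343 (4.76%). Without the OLDNPM cells, 11 of 17 cells of C343 were mesenchyme-like (64.7%) and 5 blood-like (29.4%). Another 2 cells of C378 lay in a cluster that was left unnamed. Globins, the blood markers with the most reads, were close to absent elsewhere, with no more than 56.4 CPM in any cell of C378 outside the blood-like cluster and no more than 30.1 CPM in any such cell of C343. C344, the other WT plate of day 8, held 1 mesenchyme-like and 1 blood-like cell among its 68 cells.

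**Figure D1:**
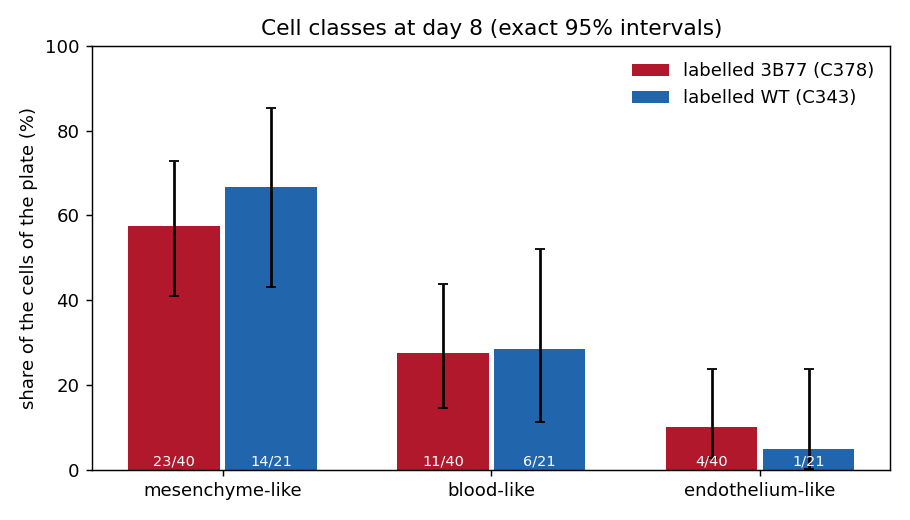
Cells of each named cluster in the library labelled 3B77 (C378, 40 cells) and in WT plate C343 (21 cells), as percent of the cells of each plate with exact 95% binomial intervals. Mesenchyme-like cells were 57.5% and 66.7% and blood-like cells 27.5% and 28.6% of the plates, with overlapping intervals.

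**Figure D2:**
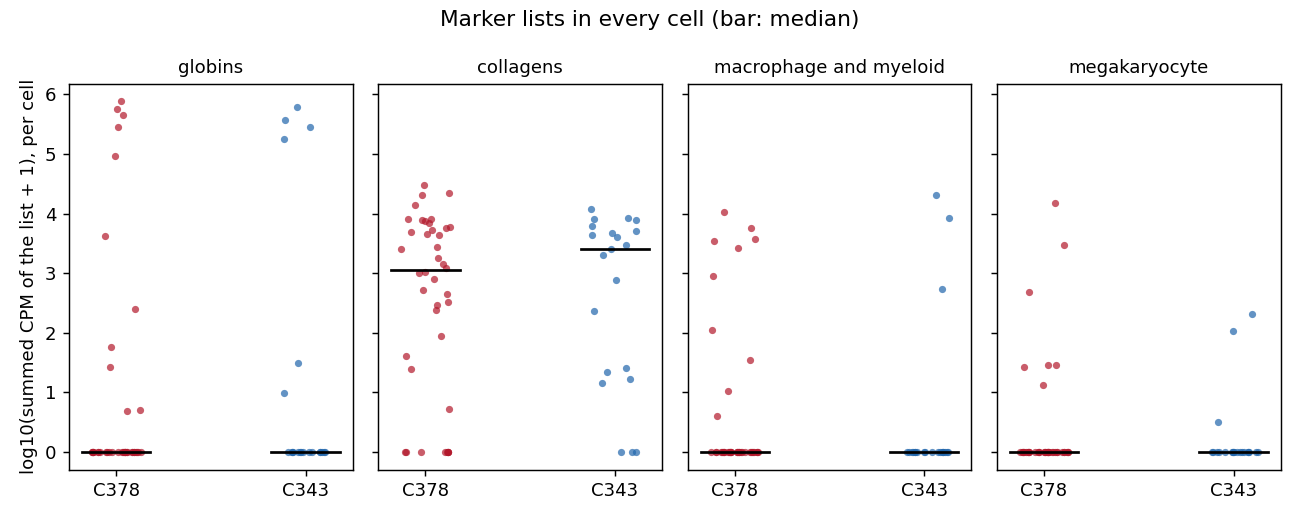
Summed level of the globin, collagen, macrophage and megakaryocyte lists in each of the 61 cells, as log10 of CPM plus a constant, by plate, with a bar at the median. Globins stood above 50000 CPM in 5 cells of C378 and 4 cells of C343, while most cells of both plates held collagen transcripts.

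C378 and C343 had a set of transcripts in common that the day 8 plates C344 and C340 lacked or held at lower levels. C307, the day 8 plate of the Dnmt3a knockout clone 3A38, was not compared for this set. It held 21 mesenchyme-like cells among its 72. A gene was counted as shared where the plates differed by less than 2-fold and both exceeded C344 and C340 (3B126, another Dnmt3b knockout clone, day 8) at least 4-fold. Of the 8405 genes that reached 10 CPM in C378 or C343, 215 met this. The set does not make the plates alike as wholes. Over the 8405 genes the rank correlation of C378 was 0.56 with C343, 0.67 with C344, 0.65 with C340 and 0.66 with C307. The 12 most abundant shared genes were the embryonic globins Hba-x and Hbb-bh1, the adult alpha globin Hba-a1, and Peg3, Col3a1, Itm2a, Asb4, Pmp22, Sparc, Col1a2, Lum and Postn. Hba-x was at 14923 CPM in C378 and 19686 CPM in C343, and Hbb-bh1 was at 12607 and 14616 CPM. Peg3, a paternally expressed zinc finger gene at chr7:6703892-6730431, was at 7000 CPM in C378 and 6533 CPM in C343. It had reads in 33 of 40 and in 19 of 21 cells, and no other plate of the series exceeded 1980 CPM. Col3a1, a fibrillar collagen chain of soft tissue, was at 2188 and 1611 CPM. Sparc, a collagen-binding matrix protein, was at 754 and 899 CPM, and Col1a2 at 655 and 746 CPM. Without the 4 OLDNPM cells the ratio stayed under 2-fold for Hba-x, Hbb-bh1, Hba-a1, Peg3, Sparc and Pmp22. For the other 6 genes it did not, and each was then higher in C378, with log2 ratios of 1.59 for Col3a1, 1.41 for Itm2a, 1.31 for Asb4, 1.08 for Col1a2, 3.64 for Lum and 1.96 for Postn. For Lum and Postn, also matrix genes, the likeness of the sums rested on single cells, since 1 cell gave 86.0% of the Lum reads and 80.3% of the Postn reads of C343. Single cells also weighed on other shared genes. In C378 1 cell gave 78.7% of the Hba-a1 reads and 1 cell 66.2% of the Hba-x reads. In C343 1 cell gave 54.7% of the Hba-x reads and 1 cell 53.1% of the Asb4 reads.

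By lists, the 12 mesenchyme markers that reached 10 CPM summed to 5393 CPM in C378 and 4565 CPM in C343, against 2.42 to 888 CPM in the other 13 plates. The collagen list summed to 3948 and 3357 CPM, against 19.3 to 668 CPM elsewhere, and the globin list to 34650 and 52053 CPM, against 0 to 21476 CPM. The median log2 ratio of C378 to C343 was -0.11 for the mesenchyme list and 0.29 for collagens, and of the 12 mesenchyme markers Twist1 and Prrx1 were at least 4-fold higher in C343 and none in C378, where over all tested genes the shares were 10.7% and 20.9%. Endothelial genes summed to 417 CPM in C378 and 165 CPM in C343, plates that held 4 and 1 endothelium-like cells. Early and neural programmes were low in both. Neural progenitor genes summed to 19.9 CPM in C378 and 14.5 CPM in C343, against 73.5 to 8761 CPM elsewhere. Epiblast genes, which mark the pluripotent tissue from which the germ layers arise, summed to 6.22 and 34.2 CPM, against 151 to 3988 CPM.

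Between the whole plates, 8405 genes reached 10 CPM in at least 1 plate. Of these, 1755 (20.9%) were at least 4-fold higher in C378 and 902 (10.7%) at least 4-fold higher in C343, while 3486 (41.5%) lay within 2-fold. Over these genes the rank correlation of C378 was 0.56 with C343. With the other plates it ran from 0.53 (C313) to 0.71 (C334), and only C313 and C315 were lower than C343. The median log2 ratio of C378 to C343 over these genes was 0.35, so the direction of a small ratio depends on the scaling. The share of the calls that were higher in C378 was 66.1%, and it was 53.3% with DESeq2 size factors, 53.5% after thinning each cell, 55.2% with the mean over cells and 56% with totals that leave out globin and mitochondrially encoded genes. Without the cell with the most reads of the gene in each plate it was 84.3%. Single cells carried much of this difference. In 1510 of the 2657 genes past 4-fold, 1 cell gave over 50% of the reads of the higher plate.

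**Figure D3:**
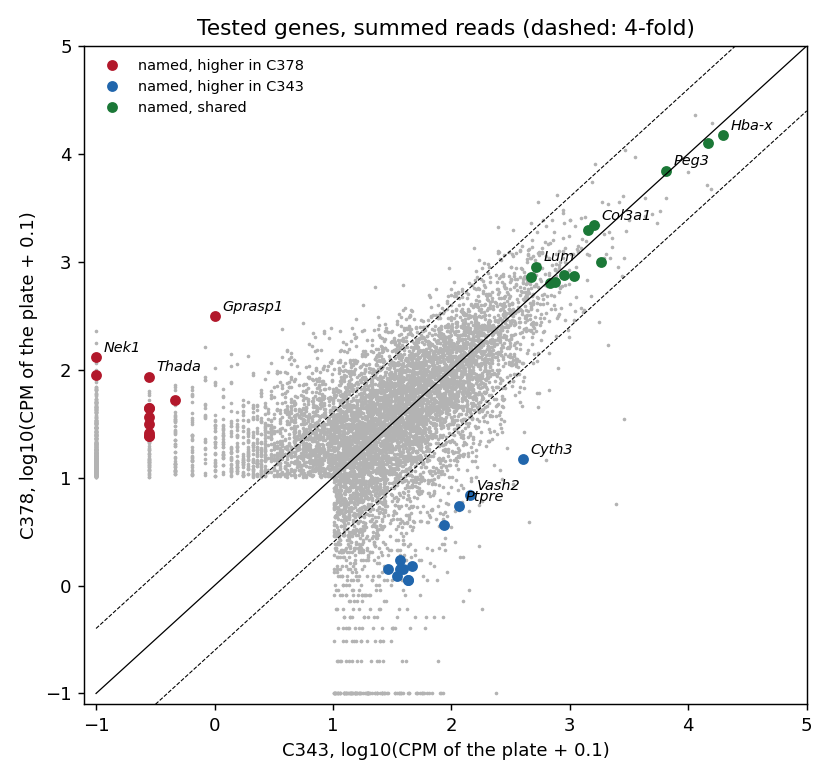
Level of each gene in WT plate C343 (x axis) and in the library labelled 3B77 (C378, y axis), as log10 of CPM of the summed reads plus a small constant. Of 8405 tested genes 1755 lay past the dashed 4-fold line on the side of C378 and 902 past that of C343. The named shared genes (green) lay between the lines, and the genes named by size are in red and blue.

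Genes without such a dominant cell and with reads in at least 5 cells of the higher plate were named by the size of the ratio. On the side of C378 the first 12 were Thada, Gprasp1, Scaper, Zfyve9, Nek1, Rnf168, Plekha1, BC002059, Gpd2, Golim4, Lipt2 and Xrcc4. Thada had 840 reads in C378 and 1 read in C343, a ratio of 471 with an interval from 84.3 to 18624. Gprasp1, which encodes a sorting protein of G-protein-coupled receptors, had 3076 reads in 19 cells of C378 and 5 reads in 3 cells of C343, a 345-fold difference (148 to 1063). Nek1, a kinase gene of the cilium and of the DNA damage response, had 1274 reads in 12 cells of C378 and no read in C343. With C343 set to 3 reads its ratio was 238, and its interval started at 193. These genes were detected in a minority of the cells even in the plate where they were higher.

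On the side of C343 the first 12 were Aplp1, Cep135, Mmaa, Phlpp2, Dtd2, Cox17, Cyth3, Zkscan17, Rab40c, Ppp1r18, Ptpre and Vash2. Aplp1, a relative of the amyloid precursor protein gene, and Cep135, a centriole protein gene, were each 42.3-fold higher, both with an interval from 22.6 to 89.3. Cyth3, an exchange factor for Arf GTPases, was the most widely detected of them, with reads in 28 of 40 cells of C378 and 16 of 21 cells of C343. It was at 14.7 CPM in C378 and 401 CPM in C343, a 27.3-fold difference (23.1 to 32.6).

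Chaperone genes assist protein folding, and among them Hspa8 and Hspa5 were detected in most cells of both plates. Hspa8 encodes the constitutive cytosolic chaperone of the Hsp70 family and lies at chr9:40800984-40810087. It was detected in 40 of 40 and 21 of 21 cells. In C378 its level in a cell ran from 662 to 8729 CPM with a median of 2624 CPM, and in C343 from 121 to 2185 CPM with a median of 694 CPM. The ranges overlapped, but 24 cells of C378 lay above every cell of C343, and 10 cells of C343 lay below every cell of C378. Over the plates Hspa8 was at 3580 CPM in C378 and 540 CPM in C343, 6.63-fold higher (6.38 to 6.88). It was under 4-fold after thinning (log2 ratio 1.93) and with the mean over cells (1.99). The other plates ran from 678 to 3391 CPM, so C378 was the highest and C343 the lowest of the 15 plates. The 3391 CPM was that of C380, which is in batch 3 with C378, and C388 of the same batch had 2475 CPM, while the WT plate C344 had 2506 CPM.

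Hspa5, the Hsp70 chaperone of the endoplasmic reticulum, ran from 0 to 5323 CPM in the cells of C378 with a median of 652 CPM, and from 0 to 1448 CPM in C343 with a median of 193 CPM. The plates were at 1263 and 248 CPM, a 5.09-fold difference (4.81 to 5.39). It too was under 4-fold after thinning (log2 ratio 1.56) and with the mean over cells (1.63). In the list of 14 heat shock and unfolded protein genes that reached 10 CPM, 4 were at least 4-fold higher in C378 and none in C343, and the list summed to 7923 CPM in C378 and 2149 CPM in C343. The background for the first count was 20.9% of all tested genes. The median log2 ratio of the list was 0.29, below the 0.35 of all tested genes, so the difference in the sums came from its abundant members and not from the list as a whole.

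Imprinted genes, which are expressed from 1 parental copy and whose imprints are marked by DNA methylation, were measured as a list of 24 tested genes. The list summed to 11580 CPM in C378 and 9616 CPM in C343, against 1797 to 4754 CPM in the other plates, but Peg3 made up 7000 and 6533 CPM of these sums. The median log2 ratio of the list was 0.44. Of the 24 genes, 4 were at least 4-fold higher in C378 (H19, Mest, Kcnq1ot1 and Zim1) and 3 in C343 (Mirg, Cdkn1c and Rtl1), shares close to the 20.9% and 10.7% of all tested genes. Zim1, Mirg, Cdkn1c and Rtl1 were under 4-fold in at least 1 alternative. Mest, a paternally expressed gene of mesoderm at chr6:30723547-30748465, was at 393 CPM in C378 and 18 CPM in C343, a 21.9-fold difference (17.9 to 27), with reads in 23 of 40 and 7 of 21 cells, and 1 cell gave 57.6% of the reads of C343. C344 had 307.4 CPM of Mest, so the WT plates differed from each other as well. Kcnq1ot1, the antisense RNA of the Kcnq1 domain, was at 238 and 24 CPM, 9.91-fold higher in C378 (8.32 to 11.9), and the counts do not tell strands apart as far as the methods state. H19, a maternally expressed RNA, had 350 reads in C378 and 3 reads in C343, a ratio of 65.4 with an interval from 22.2 to 319, and 1 cell gave 58.6% of the reads of C378.

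Of 15 mesodermal transcription factors tested, 3 (Twist1, Twist2 and Prrx1) were at least 4-fold higher in C343, against 10.7% of all genes, and none in C378, against 20.9%, and the list summed to 570 CPM in C378 and 1014 CPM in C343, with a median log2 ratio of -1.13. Twist2, a bHLH factor of mesenchyme at chr1:91801461-91848028, was at 2.04 CPM in C378 and 35.6 CPM in C343, a 17.5-fold difference (11 to 29.2). Blood transcription factors had 7 of 14 tested genes higher in C343 and none higher in C378, namely Gata2, Tal1, Klf1, Gfi1b, Runx1, Spi1 and Ikzf1, and the list summed to 210 CPM in C378 and 853 CPM in C343, with a median log2 ratio of -1.98. The shares over all genes were 10.7% and 20.9%. For Gata2, Spi1 and Ikzf1 1 cell gave 99.6%, 71.8% and 85.6% of the reads of C343, and these genes, Klf1 and Runx1 were under 4-fold in at least 1 alternative.

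Several lists followed a few cells and not the plate. Macrophage markers had 5 of 7 tested genes higher in C343, against 10.7% of all genes, with sums of 695 CPM in C378 and 3038 CPM in C343, and no gene of these 5 had reads in more than 2 cells of C343. Pf4, the platelet factor 4 gene of megakaryocytes, had 2243 reads in C378 and none in C343. With C343 set to 3 reads it was 419-fold higher in C378, and 91.0% of its reads were in 1 cell. Afp and Ttr, secreted products of visceral endoderm, had 1735 and 1294 reads in C378, and all of them lay in 1 cell, which was in the unnamed cluster. Ifitm3, an interferon-inducible membrane protein gene, was at 64.5 CPM in C378 and 670 CPM in C343, a 10.4-fold difference (9.54 to 11.3), of which 1 cell of C343 gave 71.2%. None of 19 tested genes of G2 and M phase, none of 6 of DNA methylation and none of 7 globins were past 4-fold in either direction, where 20.9% of all genes were higher in C378 and 10.7% in C343.

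The mesenchyme-like cells, 23 in C378 and 14 in C343, held 5294775 and 2919632 reads. They were nearly free of globin transcripts, which summed to 0.94 CPM in C378 and 1.03 CPM in C343, and no globin, primitive red blood or macrophage marker reached 10 CPM. From the lists of red cell membrane proteins and enzymes and of blood transcription factors, 5 and 4 genes did. Of 8261 tested genes 1861 (22.5%) were at least 4-fold higher in C378 and 1265 (15.3%) in C343, with a median log2 ratio of 0.17. Without the 3 OLDNPM cells the shares were 24.3% and 17.1%. In 2177 of these 3126 genes 1 cell gave over 50% of the reads of the higher plate. Over the tested genes the rank correlation of the mesenchyme-like cells of C378 was 0.51 with those of C343. It was 0.60 with those of C303, 0.65 with those of C307 and 0.66 with those of C334.

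Col3a1, Col1a1 and Col1a2 marked these cells and differed by less than 2-fold between the summed reads. They also formed the cluster, so their presence is no result, and only their levels in the plates are compared. Col3a1 was at 3903 CPM in C378 and 3034 CPM in C343, Col1a1 at 462 and 553 CPM, and Col1a2 at 1214 and 1405 CPM. In single cells Col3a1 had a median of 2972 CPM in C378 and 1175 CPM in C343, and 1 cell, an OLDNPM cell, gave 47.2% of its reads in C343. Without the 3 OLDNPM cells Col3a1 was higher in C378 (log2 ratio 1.11), while Col1a1 (0.32) and Col1a2 (0.66) stayed under 2-fold. Pdgfra, a growth factor receptor of mesenchyme, was at 417 and 382 CPM, and Cdh11, a cadherin of mesenchyme, at 445 and 508 CPM. Without the OLDNPM cells their log2 ratios were -0.24 and 1.83. The collagen sum of a cell ran from 334.1 to 30674 CPM with a median of 5263 CPM in C378, and from 13.2 to 11950 CPM with a median of 4558 CPM in C343, so cells of a plate differed more than the medians of the plates. Of 15 collagen genes tested, 3 (Col6a1, Col8a1 and Col11a1) were at least 4-fold higher in C378 and 2 (Col4a2 and Col16a1) in C343, near the backgrounds of 22.5% and 15.3%. Col8a1 and Col16a1 turned in direction without the cell with the most reads, to log2 ratios of -0.83 and 0.88. Col6a1, a chain of a microfibrillar collagen, had 90 reads in 9 cells of C378 and none in C343, 16.5-fold with C343 set to 3 reads. Col11a1 was under 4-fold without the OLDNPM cells (log2 ratio 1.95).

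Peg3 was at 11751 CPM in C378 and 11815 CPM in C343. Its cells ran from 2316 to 49854 CPM with a median of 8431 CPM in C378 and from 419 to 26652 CPM with a median of 8298 CPM in C343, and without the OLDNPM cells its log2 ratio was -0.19. Mest differed in these same cells. It was at 516 CPM in C378 and 32.2 CPM in C343, 16-fold higher (13.1 to 19.9), with reads in 18 of 23 and 6 of 14 cells. The highest cell had 1967 CPM in C378 and 156 CPM in C343, and 12 cells of C378 lay above every cell of C343, while cells without a read were found in both. Of 25 imprinted genes tested, 6 were at least 4-fold higher in C378 (H19, Mest, Kcnq1ot1, Zim1, Sgce and Mcts2) and 3 in C343 (Mirg, Cdkn1c and Rtl1), against 22.5% and 15.3% of all genes, and the median log2 ratio was -0.02. Of these, Sgce, Mcts2, Cdkn1c and Rtl1 were under 4-fold in at least 1 alternative. Zfp57, a KRAB zinc finger gene whose protein keeps imprints methylated, was among the genes named by size, with 1969 reads in 13 cells of C378 and 6 reads in 2 cells of C343, 181-fold higher (83.0 to 494).

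Hspa8 in the mesenchyme-like cells was at 3305 CPM in C378 and 735 CPM in C343, 4.50-fold higher (4.30 to 4.71). Its cells ran from 662 to 8729 CPM with a median of 2225 CPM in C378 and from 230 to 2185 CPM with a median of 758 CPM in C343. Here 12 cells of C378 lay above every cell of C343 and 4 cells of C343 below every cell of C378. Hspa5 was at 1885 and 395 CPM, 4.77-fold higher (4.49 to 5.08). With the mean over cells both were under 4-fold, with log2 ratios of 1.504 and 1.66, and likewise without the OLDNPM cells, with 1.62 and 1.80. Of 14 heat shock and unfolded protein genes, these 2 were past 4-fold in C378, and Ddit3 and Chac1, stress genes downstream of Atf4, were past 4-fold in C343, where all Chac1 reads were in 1 cell. Both counts were below the 22.5% and 15.3% of all genes. The summed level of that list was 7962 CPM in C378 and 2958 CPM in C343, while its median log2 ratio was -0.07, below the 0.17 of all genes tested in these cells.

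**Figure D4:**
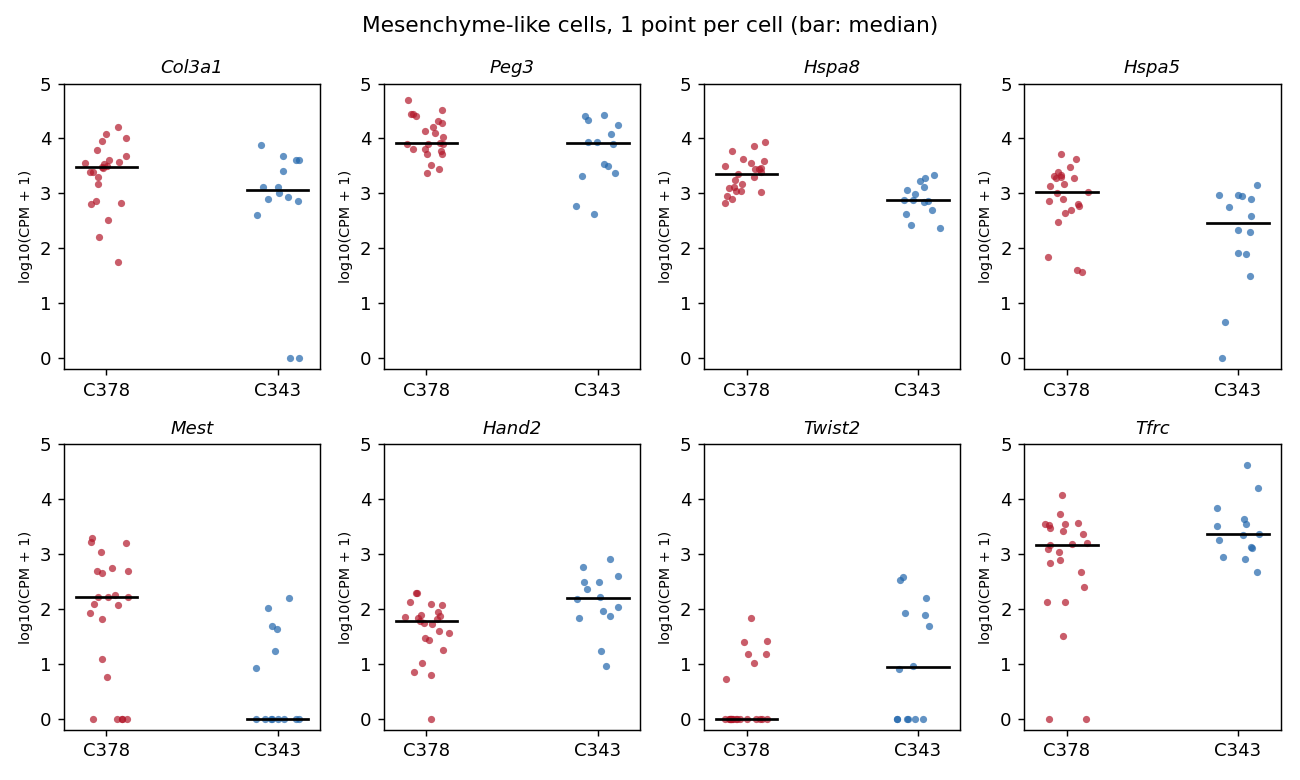
CPM of 8 genes in each mesenchyme-like cell of the library labelled 3B77 (C378, 23 cells) and WT plate C343 (14 cells), as log10 of CPM plus a constant, with a bar at the median of each plate. Peg3 had like medians, the plates overlapped in all 8 genes, Hspa8, Hspa5 and Mest sat higher in C378, and Hand2, Twist2 and Tfrc sat higher in C343.

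The few transcription factors of later mesoderm that passed 4-fold in the mesenchyme-like cells were higher in C343. Of 16 tested, 4 (Twist1, Twist2, Prrx1 and Gata4) were at least 4-fold higher in C343, against 15.3% of all genes. None were in C378, against 22.5% of all genes, and the median log2 ratio of the list was -0.75. Twist2 was at 3.78 CPM in C378 and 67.1 CPM in C343, 17.8-fold (11.2 to 29.7), with reads in 7 of 23 and 8 of 14 cells. Gata4, a zinc finger factor of heart and endoderm, was at 6.04 and 66.8 CPM, 11.1-fold (7.58 to 16.6). With clusters made without integration its log2 ratio was -1.98, under 4-fold. Hand2, a bHLH factor of heart and limb mesoderm, was found in 22 of 23 and 14 of 14 cells, and its cells had medians of 58.2 CPM in C378 and 158 CPM in C343. The sums were 63.8 and 196 CPM, 3.07-fold, short of the threshold, which it passed without the OLDNPM cells (log2 ratio -2.11). Hand1, its relative in extraembryonic mesoderm, was at 67.2 and 177 CPM, 2.63-fold. Tfrc, the transferrin receptor through which cells take up iron, was at 2012 and 6700 CPM, 3.33-fold, and 1 cell gave 57.3% of its reads in C343. Its log2 ratio was -2.37 without the OLDNPM cells and ran from -2.37 to -0.78 across the alternatives.

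Immediate early and cell cycle genes past 4-fold rested on few cells. Of 11 immediate early genes, which respond to growth signals and stress within minutes, 2 were higher in C378 and 5 in C343, against 22.5% and 15.3% of all genes. Fos had no read in C378 and 1084 reads in C343, but 96.4% of these were in 1 cell, and for Atf3 1 cell held 92.1% of 560 reads. Of 18 genes of G2 and M phase, 5 (Kif23, Bub1b, Plk1, Cdc20 and Ube2c) were higher in C343 and none in C378, against 15.3% and 22.5% of all genes, each with reads in 4 or 5 of the 14 cells. Ifitm3 was at 57.6 CPM in C378 and 1109 CPM in C343, with 81.1% of the latter in 1 cell.

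The genes named by size within the mesenchyme-like cells were Tmx4, Gprasp1, Dmxl1, Rdh14, Nek1, Zfyve9, Zfp57 and Pon2 on the side of C378. Tmx4, a thioredoxin-related membrane protein gene, had 935 reads against 1 read, a ratio of 516 with an interval from 92.3 to 20386. On the side of C343 they were Lgi2, Rab40c, Pgam2, Morc2a, Ubqln2, Mmaa, Eif2ak4 and Aplp1. Morc2a, a chromatin ATPase gene, was 52.5-fold higher in C343 (31.5 to 94.6). Gprasp1, Nek1 and Zfyve9 on one side, and Rab40c, Mmaa and Aplp1 on the other, were also named over the whole plates, whose reads include those of these cells.

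The blood-like cells, 11 in C378 and 6 in C343, mixed red cells with myeloid cells. Of 6586 tested genes 2242 (34%) were at least 4-fold higher in C378 and 1079 (16.4%) in C343, with a median log2 ratio of 0.78, and in 2551 of these 3321 genes 1 cell gave over 50% of the reads of the higher plate. The share of calls that were higher in C378 was 67.5%, and 54.1% with clusters made without integration, which left 7 and 4 blood-like cells. The largest ratios by the rule were those of Ifrd1, Acer3, Impa1, Stag2, Ak4, Tmem97, Lrr1 and Haus3 on the side of C378, and of Tspyl1, Parp9, Myo9b, Ctcf, Osbp, Srxn1, Cox17 and Tnrc6b on the side of C343. Since the mixture differs from plate to plate, red and myeloid cells are described apart, by limits that were set after the levels in the cells had been seen.

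The globin genes expressed in these cells belong to the alpha cluster on chromosome 11 and the beta cluster on chromosome 7. Promoter windows of 300 bases, from 250 bases before to 50 after the start of the gene, are shown for an embryonic beta-type gene, an embryonic alpha-type gene and an adult beta gene, because the levels of the beta-type genes differed widely from one red cell to the next. The sequences are from RefSeq on GRCm38.p6 and read along the strand of the gene. Capitals mark AGATAA (a form of the GATA motif), the CACCC motif, CCAAT and TATAAA, which were searched on both strands. Other forms of the GATA motif, such as TGATAA, were not searched, so a window without AGATAA can still hold a GATA motif. Hbb-y is at chr7:103853158-103853457, minus strand, Hba-x at chr11:32276350-32276649, plus strand, and Hbb-bs at chr7:103827879-103828178, minus strand.
Hbb-y: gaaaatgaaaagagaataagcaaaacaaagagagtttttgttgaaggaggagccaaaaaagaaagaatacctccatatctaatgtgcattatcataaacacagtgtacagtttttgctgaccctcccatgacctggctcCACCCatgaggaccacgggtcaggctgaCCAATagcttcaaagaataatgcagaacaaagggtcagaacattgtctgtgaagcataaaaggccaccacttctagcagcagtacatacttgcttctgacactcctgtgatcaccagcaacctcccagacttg
Hba-x: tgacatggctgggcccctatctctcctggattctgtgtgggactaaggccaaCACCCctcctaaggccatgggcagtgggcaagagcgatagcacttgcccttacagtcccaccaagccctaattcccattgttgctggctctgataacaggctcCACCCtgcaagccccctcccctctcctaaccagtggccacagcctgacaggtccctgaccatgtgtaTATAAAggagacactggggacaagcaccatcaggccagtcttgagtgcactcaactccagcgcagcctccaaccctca
Hbb-bs: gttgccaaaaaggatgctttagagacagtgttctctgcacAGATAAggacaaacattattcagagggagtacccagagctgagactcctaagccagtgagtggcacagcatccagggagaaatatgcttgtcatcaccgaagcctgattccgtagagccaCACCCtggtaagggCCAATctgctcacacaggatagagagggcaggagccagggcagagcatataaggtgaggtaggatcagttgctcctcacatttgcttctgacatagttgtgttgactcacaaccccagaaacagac
All of the marked matches were on the strand of the gene. CACCC was in each of the 3 windows and at 2 places in that of Hba-x, CCAAT was in those of Hbb-y and Hbb-bs, TATAAA in that of Hba-x, and AGATAA in that of Hbb-bs. Among 32851 windows of the same length over all genes, CACCC was in 57.5%, CCAAT in 37.4%, TATAAA in 13.6% and AGATAA in 11.2%. A match is a description of the letters and not a site of binding.

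Cells with at least 50000 CPM of globins numbered 5 in C378 and 4 in C343. The lowest had 92842 CPM, while the highest of all other cells had 4218 CPM. The globin sums were 92842, 287943, 448117, 573073 and 769207 CPM in C378 and 179818, 288062, 377949 and 623214 CPM in C343. The plates overlapped over most of this range, and the cell with the least and the cell with the most globin were both in C378.

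Both plates held red cells of the embryonic type with unequal use of the beta-type genes. Hbb-bh1, an embryonic beta-type globin gene, was at 69999, 111753, 173493, 193117 and 234933 CPM in the cells of C378 and at 64931, 70606, 107479 and 193877 CPM in those of C343. All 9 cells held it at a high level, but the globin sum that chose these cells includes it, so this is no result. Hbb-y, the other embryonic beta-type gene, was at 39, 303.2, 7083, 144306 and 411530 CPM in C378 and at 361, 2778, 51226 and 426614 CPM in C343, so each plate had cells with little and cells with much of it. Hbb-bs, an adult beta gene, was at 0, 21.7, 73.3, 87.6 and 30824 CPM in C378 and at 66, 122, 176 and 28266 CPM in C343. One cell of each plate stood far above the rest, and that of C343 was the OLDNPM cell. Near-identical globin copies such as Hba-a1 and Hba-a2 are uncertain, since reads that map to several places were not counted.

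Among 5412 genes tested in these red cells, 1318 (24.4%) were at least 4-fold higher in C378 and 1586 (29.3%) in C343, with a median log2 ratio of -0.20. Genes whose lowest cell in one plate exceeded the highest cell in the other numbered 31 (0.573%) higher in C378 and 33 (0.61%) higher in C343.

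Tal1, the bHLH factor required for blood formation, at chr4:115056426-115071755, was one of these. It was at 55.9, 69.4, 97.7, 223 and 312.7 CPM in the cells of C378 and at 807, 859, 1988 and 2049 CPM in those of C343. The plates did not overlap. The sums were at 120 and 1640 CPM, a 13.6-fold difference (11.2 to 16.7). Zfpm1, the cofactor of Gata1 in red cells, was at 0, 0, 4.34, 12.5 and 14.7 CPM in C378 and at 22, 32, 74.4 and 134 CPM in C343, 6.31-fold higher in C343, again without overlap. Klf1, the factor that binds CACCC boxes of the adult beta globin gene, was at 0, 12.2, 73.7, 200.1 and 235 CPM in C378 and at 21.3, 465, 728 and 886 CPM in C343. The lowest cell of C343 lay within the range of C378, and the sums differed 4.98-fold. Runx1, the factor of definitive blood formation, had no read in C378 and 62 reads in C343. Of 9 blood transcription factors tested, 6 (Tal1, Klf1, Gfi1b, Runx1, Zfpm1 and Cbfa2t3) were higher in C343, against 29.3% of all genes. None were higher in C378, against 24.4% of all genes, and the median log2 ratio of the list was -2.46. Cbfa2t3 was under 4-fold in at least 1 alternative (log2 ratio -1.75).

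Fech, the ferrochelatase gene, whose product puts iron into haem, differed the other way. It was at 87.6, 134, 188, 425 and 699 CPM in C378 and at 5.50, 31.9, 36.7 and 58.7 CPM in C343, 12.8-fold higher in C378 (8.29 to 20.7) and without overlap. Of the 16 haem and iron genes tested, Fech and Hmox1, the haem oxygenase gene, were higher in C378 (Hmox1 in 1 cell), and Cpox, Ppox and Slc11a2 were higher in C343, shares below the 24.4% and 29.3% of all genes. Ppox was no longer past 4-fold without the OLDNPM cell (log2 ratio -0.44), and Slc11a2 was under 4-fold in at least 1 alternative (log2 ratio -1.65). Cpox, which encodes an earlier enzyme of haem synthesis, was 8.21-fold higher in C343.

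Of 18 genes of red cell membrane and enzymes, 4 were past 4-fold in C343, a share below the 29.3% of all genes, and none in C378, against 24.4%. Among them Bpgm, which makes the haemoglobin effector 2,3-bisphosphoglycerate, was 12.4-fold higher, with 85.5% of its reads in 1 cell of C343, and Cat, the catalase gene, was 10.1-fold higher. Of 13 hypoxia and glycolysis genes, 6 (Slc2a3, Pfkp, Aldoa, Pgk1, Eno1 and Ndrg1) were higher in C378 and 1 (Pdk1) in C343, against 24.4% and 29.3% of all genes, with a median log2 ratio of 1.94. Without the cell with the most reads Aldoa was under 4-fold (log2 ratio 1.32) and Pdk1 turned to 0.10. Pgk1, a glycolytic kinase gene, was 12.5-fold higher in C378 and had reads in all 5 of its cells, while Slc2a3, Pfkp and Ndrg1 had theirs in 1 cell.

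**Figure D5:**
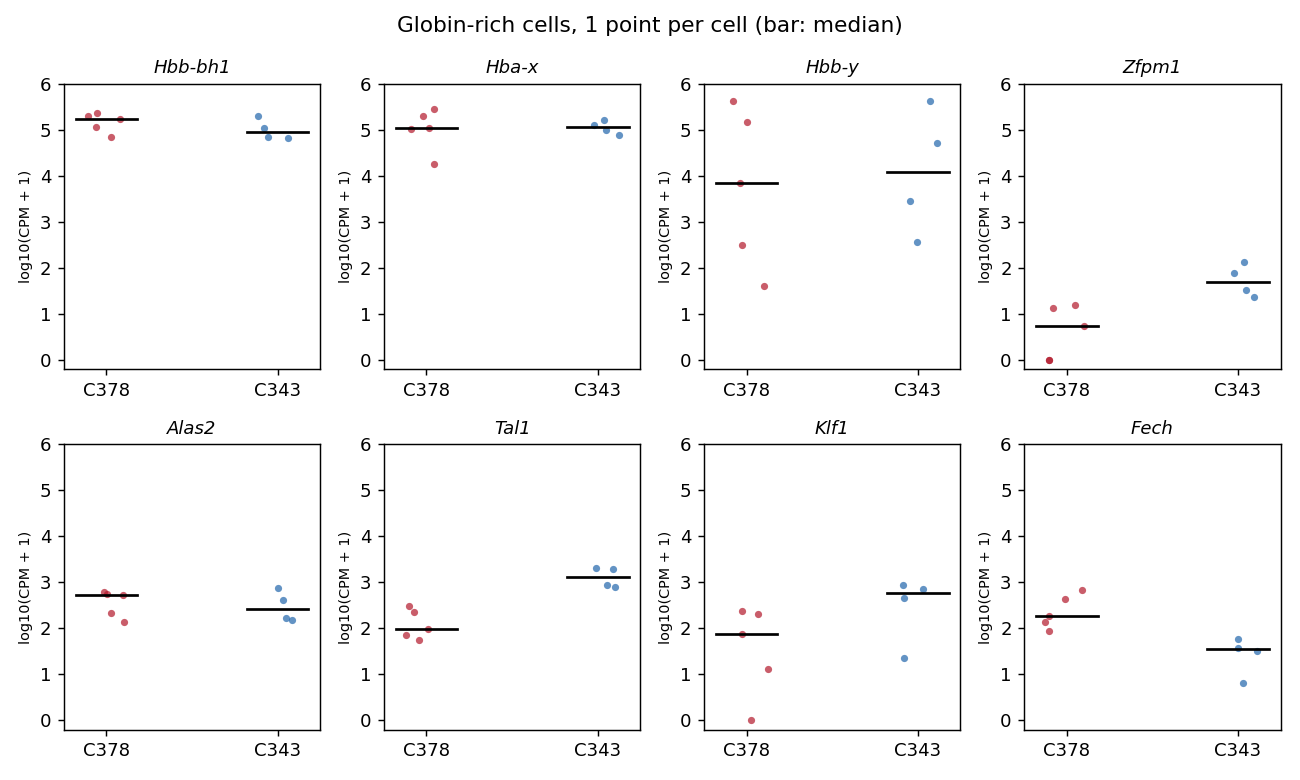
CPM of 8 red cell genes in each of the globin-rich cells of the library labelled 3B77 (C378, 5 cells) and WT plate C343 (4 cells), as log10 of CPM plus a constant with a bar at the median. Embryonic globins overlapped between the plates, Tal1 and Zfpm1 were lower and Fech higher in every cell of C378 than in any cell of C343, and Klf1 overlapped.

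Myeloid cells were few in both plates. Cells with at least 3000 CPM of macrophage markers numbered 4 in C378, with sums of 3432, 3748, 5642 and 10581 CPM, and 2 in C343, with sums of 8536 and 20402 CPM. The highest cell under this limit had 2666 CPM, so the limit falls in no wide gap. Ptprc, the CD45 phosphatase of white blood cells, was at 433, 1533, 1603 and 1994 CPM in C378 and at 5620 and 15230 CPM in C343. Csf1r, the receptor of macrophage growth factor, was at 20.7, 178, 308 and 346 CPM in C378 and at 0 and 123 CPM in C343. Fcer1g, a signalling subunit of Fc receptors, was at 1028, 1131, 1606 and 9393 CPM and at 1050 and 1402 CPM. Cx3cr1, a chemokine receptor gene of tissue macrophages, was at 64.3, 153, 164 and 230 CPM in C378 and at 363 and 837 CPM in C343. All of these genes belong to the sum that chose the cells, so their levels are a description.

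Megakaryocyte markers had reads in all but 33 of the 40 cells of C378 and all but 18 of the 21 cells of C343. Cells with more than 1000 CPM of them numbered 2 in C378, with 15058 and 2968 CPM, and the highest cell of C343 had 203 CPM. In the former the globin sums were 4218 and 252 CPM and the macrophage marker sums 2666 and 905 CPM, so both lay outside the red and the myeloid cells. F2rl2, a protease-activated receptor gene found in megakaryocytes, had 372 reads in C378 and none in C343, 69.5-fold with C343 set to 3 reads.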

How the data were processed

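Single cells of embryoid bodies were sorted into wells and profiled by a modified Smart-seq2 protocol with 25 PCR cycles, no molecular identifiers and single-end reads of 75 bp. According to the labels and the methods, the authors trimmed reads (Trim Galore 0.5.0, FastQC 0.11.2), aligned them to mm10 (STAR 2.7.1a), counted uniquely mapped reads per gene name (featureCounts 1.6.1, GENCODE M23) and kept cells with at least 50000 reads, 2000 genes and at most 50% mitochondrial reads. Neither the labels nor the methods state whether strand was used. The deposited counts are whole reads for 36849 genes in 965 cells, and every cell met these limits. Each column was mapped to a sample by its title, and no 2 columns were identical. Gene coordinates are from GENCODE M21 (GRCm38).

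Reads were summed over the cells of a plate or cell class and divided by the total (CPM). Genes with at least 10 CPM in either plate were compared, and 4-fold or more was the threshold. Ratios have exact 95% intervals from the reads, shares of cells have exact Clopper-Pearson intervals, and both cover counting error only, as PCR copies are not independent molecules. A plate without a read was set to 3 reads for the fold, which is no lower bound, since its interval can start lower. With 1 plate per group no test was made. For detection, cells were thinned to 50000 reads. Clusters were made with Seurat 5.3.0 in R 4.3.3 (integration over batches on 2000 variable genes, 8 components, resolution 0.8) and named from marker lists where at least 3 markers were at least 4-fold higher and detected in 25% of the cells. No doublet caller was run. Scalings used edgeR 4.0.16 (TMM) and DESeq2 1.42.0 (size factors), with no test by either. Other steps used Python 3.11.15, numpy 2.4.6, pandas 2.3.3 and scipy 1.17.1, and the ratio and threshold steps were tested on simulated data.

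The plates and lists were chosen with earlier results of these data known. Genes named by size were, in each direction, the 12 largest ratios over the plates with reads in at least 5 cells, or the 8 largest within a class with at least 3 cells, with no cell giving over 50% of the reads of the higher plate. Predicted genes and pseudogenes were counted and not named. Shared genes were the 12 with the highest mean level. Members of the gene lists, Dnmt3a and Dnmt3b were named beside these. The Y-linked and Xist check, the limits of 50000 and 3000 CPM for red and myeloid cells, the search for clone genes at 10% and 0% and the alternatives within cell classes without the OLDNPM cells were added after the data had been seen, as were the genes given with values that fall outside these rules (Ifitm3).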

Additional observations from a re-analysis of the deposited data

How the results depend on the processing

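No paired analysis was possible because each group was 1 plate and the replicate numbers only name wells. Between the whole plates, 20.9% of the tested genes were at least 4-fold higher in C378 and 10.7% in C343. With no minimum beyond 3 reads these were 21.4% and 11.5% of 15752 genes (3366 of 5170 past the threshold were higher in C378), at 50 CPM 15.1% and 8.97% of 3836 genes (578 of 922), and at 8-fold 12.6% and 5.66% (1056 of 1532). Without the cell with the most reads of the gene in each plate, fewer genes were tested, and those higher in C343 were 4.93% over the plates (1646 of 1953 past the threshold were higher in C378), 9.02% in mesenchyme-like and 10.8% in blood-like cells. In red cells 21.4% (587 genes) were then higher in C378 and 22.5% (617 genes) in C343. By marker list alone 12.5% of the cells of C378 were blood-like. Without integration 2.5% of C378 and 0% of C343 lay in the cluster then named endothelium-like, but these shares do not follow the endothelial cells. In C378 the cell was G2, with 0 CPM of endothelial and 5498 CPM of visceral endoderm markers. The endothelium-like cells of the main clusters then shared a cluster with the myeloid cells. No gene separated the knockout clones from WT at the planned limits. At 10% and 0%, 3B77 had 2 genes on the WT side (Eif2s3y and Uty) and 1 on its own, and 3B126 had 3 on the WT side, and without thinning the numbers were 3, 1 and 3. Genes named by size were chosen for large ratios without a dominant cell, so that they stay past 4-fold is no support. In blood-like cells all named ratios were of this kind, and 16 of 16 stayed past it in every alternative. In red cells none were, and 11 of 20 stayed. Of the 133 named gene ratios of both kinds that were past 4-fold, 98 stayed past it in every alternative run. Without the cell with the most reads, 6 turned in direction, to log2 ratios of -0.78 for both Afp and Ttr and 0.64 for Gata2 over the plates, -0.83 for Col8a1 and 0.88 for Col16a1 in mesenchyme-like cells and 0.10 for Pdk1 in red cells. Across the alternatives the log2 ratio over the plates ran from 1.93 to 2.91 for Hspa8, from 4.12 to 5.29 for Mest, from 2.73 to 4.57 for Kcnq1ot1 and from -4.64 to -3.68 for Twist2. In the mesenchyme-like cells that of Mest ran from 3.88 to 4.65, and in red cells that of Tal1 ran from -3.98 to -3.23 and that of Fech from 3.21 to 3.82. The cause of these shifts was not tested.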
